A study of Mus musculus with 4 samples.

Results

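The 45 genes described here encode the machinery of the G2 phase and of mitosis. They were chosen by name, from a list that holds no measured value, but with earlier results of these data known. Each was found by its symbol among the 31053 genes of the deposited matrix of mouse trabecular bone and marrow cells. They were described across 23 classes of cells set by marker genes and across the stages of the B, neutrophil and erythroid lineages. Ordered by role, 7 form the engine of cyclins and Cdk1, 6 are mitotic kinases, 4 are partners of the chromosomal passenger complex or of phosphatases and 2 work with the anaphase-promoting complex. A further 5 sit at the kinetochore or centromere, 10 act on spindle and microtubules, 4 in cytokinesis, 4 on chromatin and 2 in the nuclear lamina and inner membrane, and G2e3 encodes a ubiquitin ligase.

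A cell that has copied its DNA builds up cyclin A and then cyclin B, which switch on Cdk1, while Polo, Aurora and Bub kinases assemble the spindle and check that each kinetochore is attached. The anaphase-promoting complex, with Cdc20 and the ubiquitin-conjugating enzyme Ube2c, then destroys the cyclins, and the cell splits. Most of these genes are held silent in resting cells by the DREAM complex, which binds a short promoter element, and are switched on in G2 by B-Myb and FoxM1. In adult marrow they are known for marking dividing blood progenitors, since red cell, neutrophil and B cell precursors divide several times and stop before they are mature.

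The study measured single cells from trabecular bone by 10x Genomics droplet sequencing, in which each molecule of messenger RNA is counted by a unique molecular identifier (UMI). The 4 sample records share all labels of group: mice of 8 weeks, proximal and distal tibia, no parathyroid hormone, cells released with dispase, collagenase and trypsin. Every cell came from animals with Col10a1Cre, which acts in hypertrophic chondrocytes, a Rosa26-Tdtomato reporter, and the genotypes Irx3 +/Δ and Irx5 +/-, named by the labels as the heterozygous control. The records were pooled in 1 matrix with no map from cells to records, so there is 1 library, no other group to compare with and no spread between replicates. Whether a record stands for an animal or for a repeat run is unknown from the labels. With a single library no test was run and no p-value is given. Levels are CPM, a gene's UMIs scaled to the total of UMIs in the class, and every interval is an exact 95% interval for counting error only.

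Of 15014 barcodes, 11007 passed the filters on depth and mitochondrial share, 522 of these (4.74%) were called doublets and left out, and 10485 cells remained with a median of 4855 UMIs (500 to 80413). The called doublets held more of the mitosis genes than the kept cells, with 46.4% against 27.4% of barcodes showing 10 or more of the 45. Those shares were not set to equal depth, and the summed levels were closer, at 8072 against 7379 CPM. Marker gates placed 8586 kept cells (81.9%) in a class, 791 met the gates of several lineages and 1108 met none, and 840 cells (8.01%) changed class when all gates were moved to 0.9 or 1.1 times their value. No mitosis gene was used in a gate, and none was among the 10 leading genes of any class. Since the gates used marker genes, their presence among the leading genes does not check the class names. In 21 of the 23 classes the leading genes included at least 1 marker of the class. The exceptions were the middle erythroid class, defined by a haemoglobin share, and the Kit progenitor class, whose name rests on its gate, since its 10 leading genes, among them Mecom, Nkx2-3 and Procr, held 0 of its own markers and 1 of another class. Azurophil progenitors also held 1 marker of another list, the eosinophil gene Epx. Class names below stand for these gates and not for an annotation by the authors.

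The promoters of the 45 genes are shown first because their shared letters were not used in choosing them and because the genes were seen in the same cells. RefSeq windows from 250 bases before to 50 bases after the transcription start (GRCm38.p6) were at hand for 38 members. Ccna2, Cdca2, Cdc25c, Aurkb, Tpx2, Dlgap5 and Smc4 had no entry. The letters TTTGAA, the cell cycle genes homology region to which the DREAM complex is known to bind, were searched on both strands and stood in 27 of 38 members (71.1%), against 20.2% of all 27025 genes with a window. CCAAT, the box bound by the factor NF-Y, stood in 29 of 38 (76.3%) against 41.1%, and both motifs together in 22 of 38 (57.9%) against 7.97%. The variant TTCGAA was found in 2 of 38 members (5.26%) and in 1.80% of genes. A gene with several windows was counted if any of them held the letters, and a match of the first motif may share bases with a match of the second. These are matches of letters, not sites shown to be bound.

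For 5 genes whose counts the results below turn on, the 100 bases before the transcription start are printed in the direction of the gene, with TTTGAA and CCAAT, or their reverse complements TTCAAA and ATTGG, in capitals. Cdk1 follows the common pattern, high in dividing and low in mature classes. Cdc20 does too, but its log2 ratio of middle over early erythroid cells, -0.661 with haemoglobin in the totals, was the lowest of the 45. Haemoglobin lowers this ratio for every gene, and the median of the 45 was 0.347 with it and 1.34 without. Ube2c and Nusap1 differ from the rest in late red cells, and Lbr differs in neutrophils.
Cdk1, minus strand of chr10:69352913-69353012: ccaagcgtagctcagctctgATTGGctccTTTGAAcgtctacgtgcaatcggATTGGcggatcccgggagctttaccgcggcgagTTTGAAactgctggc
Cdc20, minus strand of chr4:118437344-118437443: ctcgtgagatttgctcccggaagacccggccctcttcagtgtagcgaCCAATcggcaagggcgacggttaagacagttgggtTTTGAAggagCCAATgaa
Ube2c, plus strand of chr2:164769829-164769928: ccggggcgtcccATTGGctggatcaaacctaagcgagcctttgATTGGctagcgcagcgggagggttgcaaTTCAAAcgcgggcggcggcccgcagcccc
Nusap1, plus strand of chr2:119618198-119618297: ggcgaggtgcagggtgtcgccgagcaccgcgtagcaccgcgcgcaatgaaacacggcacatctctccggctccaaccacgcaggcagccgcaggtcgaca
Lbr, minus strand of chr1:181842402-181842501: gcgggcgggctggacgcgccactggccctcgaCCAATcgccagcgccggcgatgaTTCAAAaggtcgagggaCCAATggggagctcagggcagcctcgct
Cdk1 holds TTTGAA starting 71 and 15 bases before its start, and Cdc20 holds it at 18 bases. In Ube2c and Lbr it stands on the other strand, at 29 and 45 bases. The whole Nusap1 window held neither motif, while that of Lbr, the member least tied to the others in the data below, held both.

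Together the 45 genes took 533838 UMIs, 0.738% of all UMIs of the kept cells, and Hmgb2 alone took 28.3% of these. Their summed level was highest in middle erythroid cells, whose haemoglobin share lies between 20 and 75%, at 15320 CPM (interval 15206 to 15435). Pre-B cells with Rag1, Rag2 or Il2ra followed at 14315 CPM, pro-B and large pre-B cells at 11610, early erythroid cells at 11457 and granule-making neutrophils at 9283. Azurophil and granule neutrophils, which hold primary and secondary granule genes at once, had 7599 CPM, basophils 6822, monocytes 5330, azurophil progenitors 4956 and Kit progenitors 4905. NK cells (3560), osteoclasts (3538), mature B cells (3097), immature B cells (2938), plasmacytoid dendritic cells (2344), intermediate neutrophils (2336), T cells (2323) and mature neutrophils (2257) lay below these. Plasma cells (1303 CPM), macrophages (1183), late erythroid cells (720) and osteoblasts (381) were lowest among classes of 20 cells or more. Of the neighbours in this order, pro-B and early erythroid cells, azurophil and Kit progenitors, NK cells and osteoclasts, mature and immature B cells, the 4 classes from plasmacytoid dendritic cells to mature neutrophils, and plasma cells and macrophages had intervals that overlap. The totals hold haemoglobin, with 52.1% of UMIs in middle and 86.9% in late erythroid cells, so the place of these classes depends on it. With haemoglobin left out middle erythroid cells had 31958 CPM. Late erythroid cells then had 5480 CPM, beside 5338 in monocytes, and Ube2c and Nusap1 took 1649 and 737 of their 3720 member UMIs.

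**Figure D1:**
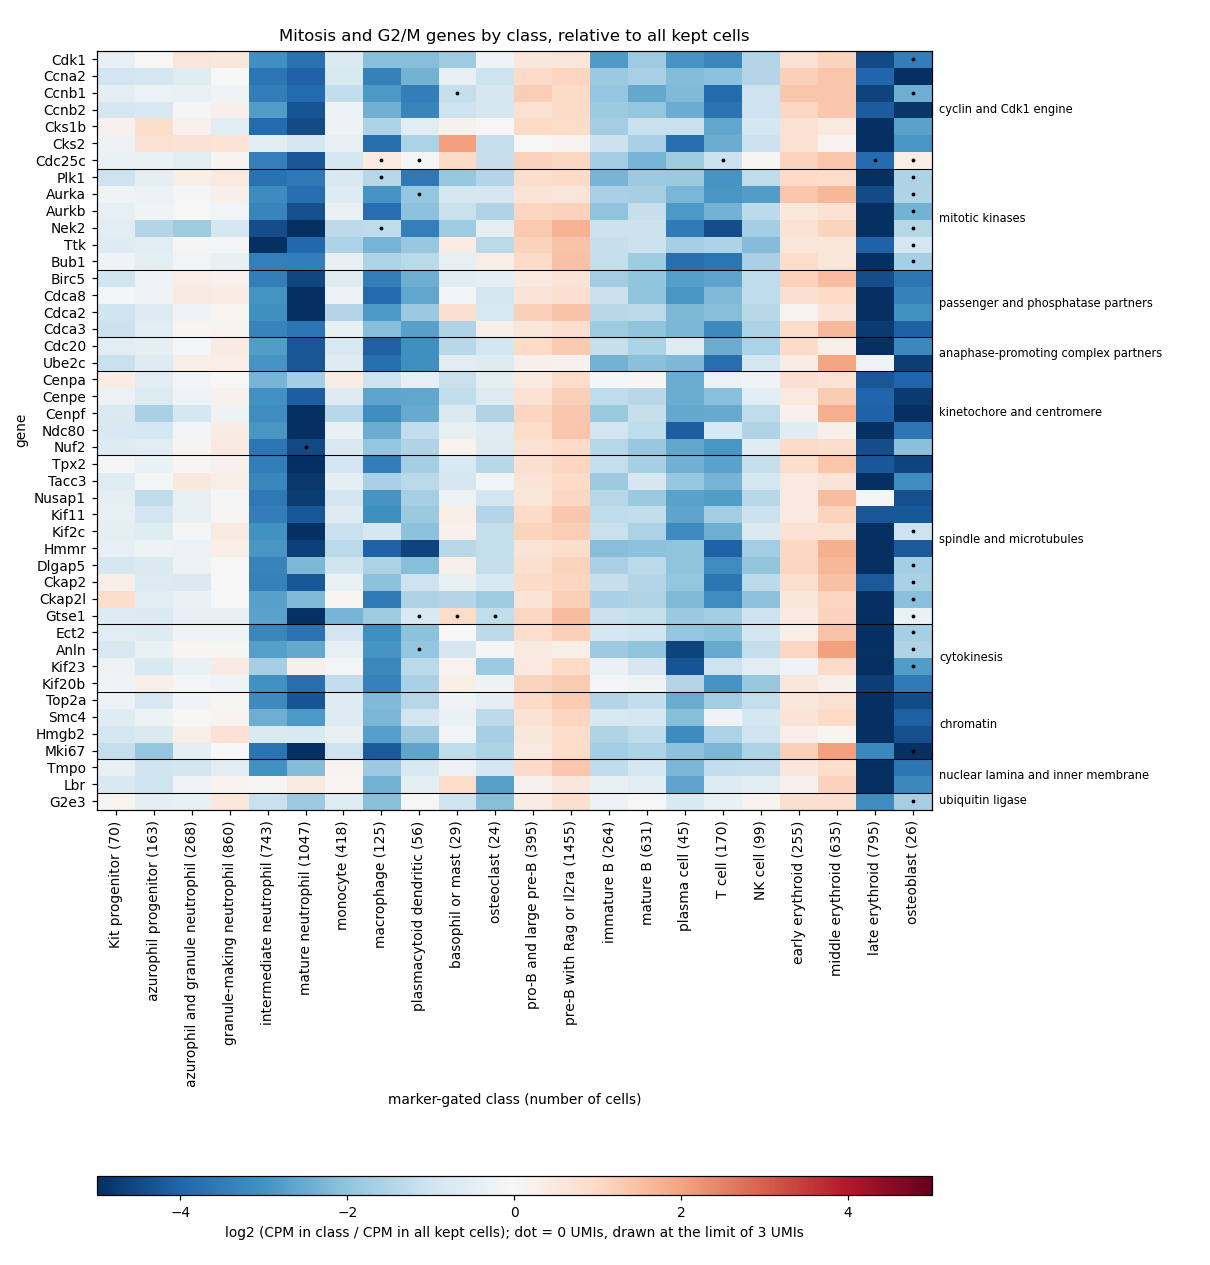
Level of each of the 45 genes (rows, grouped by role) in each class (columns, with the number of cells), as the log2 of its CPM over its own CPM in all kept cells. Each gene is compared only with itself; a dot marks 0 UMIs drawn at the limit that 3 UMIs would give, which is high where a class holds few UMIs, and haemoglobin lowers every value of middle and late erythroid cells. The early and middle erythroid and early B columns are red in most rows, and the late erythroid column is blue in most rows. The intermediate and mature neutrophil columns are blue. Exceptions there are Lbr and, in mature neutrophils, Kif23, which lie near or above their level in all kept cells.

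Among the 15 classes with 100 or more cells, 21 members had their highest CPM in middle erythroid cells, 19 in pre-B cells, 4 in early erythroid cells (Ccnb1, Cks2, Plk1 and Nuf2) and Cks1b in pro-B and large pre-B cells. None peaked in a neutrophil class, in monocytes or in mature lymphocytes. Haemoglobin is in these totals, with 52.1% of the UMIs of middle and 4.72% of those of early erythroid cells. With it left out, 35 of the 45 were past 2-fold higher in middle than in early erythroid cells and 0 lower. The class in which a gene peaks thus depends on the total. The levels of single genes below, taken role by role, use the totals with haemoglobin.

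In the engine, Cdk1, the kinase that drives entry into mitosis, had 243 CPM in middle erythroid cells (interval 229 to 258), 175 in pre-B cells and 168 in granule-making neutrophils, against 33.7 in mature B cells, 8.54 in mature neutrophils and 5.03 in late erythroid cells. Ccnb1, the B-type cyclin that activates it, had 150 CPM in early erythroid cells, 144 in middle erythroid cells, 132 in pro-B and large pre-B cells, 113 in pre-B cells and 49.97 in granule-making neutrophils. It had 9.57 CPM in mature B cells, 3.84 in mature neutrophils and 2.32 in late erythroid cells. Ccna2, cyclin A, and Ccnb2, the second B-type cyclin, were also highest in middle erythroid cells, at 314 and 264 CPM in middle erythroid cells and 252 and 198 in pre-B cells. Cdc25c, the phosphatase that releases Cdk1 from inhibition, was thinly counted, with 21.5 CPM in middle erythroid cells, 16.9 in pre-B cells and 9.18 in granule-making neutrophils, and with 0 UMIs in late erythroid and T cells. The small Cdk-binding proteins differed among the neutrophil stages. Cks1b had 246 CPM in azurophil progenitors and 93.0 in granule-making neutrophils, while Cks2 had 443 and 426.

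Of the 6 mitotic kinases, Aurkb, Nek2, Ttk and Bub1 were highest in pre-B cells, Aurka in middle and Plk1 in early erythroid cells. Plk1, the Polo kinase of centrosome and kinetochore, had 62.4 CPM in early erythroid, 62.0 in pre-B and 43.5 in granule-making cells and 8.74, 2.56 and 0.581 in mature B cells, mature neutrophils and late erythroid cells. Aurka, the spindle pole Aurora kinase, had 94.8 CPM in middle erythroid cells, and Aurkb, the kinase of the passenger complex, 119 in pre-B cells. Nek2, a centrosome kinase, had 94.4 CPM in pre-B cells, 69.1 in pro-B and large pre-B cells and 60.4 in middle erythroid cells, and 8.26 to 15.4 in the 3 dividing neutrophil classes, near the 13.3 of mature B cells. The checkpoint kinases Ttk and Bub1 had 51.5 and 90.4 CPM in pre-B cells against 1.28 and 2.99 in mature neutrophils.

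Birc5 (survivin) and Cdca8 (borealin) anchor Aurkb to chromosomes, Cdca2 recruits a phosphatase to them and Cdca3 triggers the loss of the Cdk1 inhibitor Wee1. Birc5 had 625 CPM in middle erythroid cells, 332 in pre-B cells and 247 in granule-making neutrophils, against 8.97 in mature neutrophils. Cdca8, Cdca2 and Cdca3 ranged from 44.6 to 360 CPM in middle erythroid cells and from 0.854 to 9.40 in mature neutrophils. Of the partners of the anaphase-promoting complex, Cdc20, its activator, had 161 CPM in pre-B, 127 in early erythroid and 80.3 in middle erythroid cells. Ube2c, its ubiquitin-conjugating enzyme, had 1456 CPM in middle erythroid cells, 477 in early erythroid cells, 466 in granule-making neutrophils and 430 in pre-B cells. In totals with haemoglobin the pair thus peaked in different classes. Haemoglobin took 52.1% of middle erythroid UMIs, so this contrast depends on the total.

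At the kinetochore, Cenpf, a large protein of the outer plate, had 592 CPM in middle erythroid and 424 in pre-B cells, against 3.84 in mature neutrophils. Nuf2, a subunit of the complex that holds microtubules, had 57.2 CPM in early erythroid and 57.0 in pre-B cells and no UMI in 1047 mature neutrophils, which allows up to 1.28 CPM. Its partner Ndc80 had 113 CPM in pre-B cells, 54.95 in granule-making neutrophils and 50.4 in middle erythroid cells. The motor Cenpe had 231 and 220 CPM in middle erythroid and pre-B cells. Cenpa, the histone that marks the centromere, was also counted in classes of mature cells, with 402 CPM in pre-B, 222 in mature B, 176 in T and 65.8 in mature neutrophil cells.

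The 10 spindle genes include the Aurora activator Tpx2, the motors Kif11 and Kif2c, the microtubule-bundling Nusap1, the centrosomal Tacc3, and Hmmr, Dlgap5, Ckap2, Ckap2l and Gtse1. They had 29.3 to 429 CPM in middle erythroid cells, 38.5 to 328 in pre-B cells, 10.1 to 138 in granule-making neutrophils and 0.427 to 9.83 in mature neutrophils. In cytokinesis, the contractile ring scaffold Anln had 123 CPM in middle erythroid, 61.6 in early erythroid and 37.0 in pre-B cells, and Ect2, which sets the place of the furrow, had 87.0, 41.6 and 75.8. The motor Kif20b had 48.8, 60.7 and 97.0 CPM in these classes and Kif23, the motor of the central spindle, 143, 64.2 and 144.

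Of the chromatin genes, Mki67, whose product Ki-67 coats mitotic chromosomes and is the common marker of dividing cells, had 2358 CPM in middle erythroid cells (interval 2314 to 2404). It had 1295 in early erythroid, 1073 in pre-B, 790 in pro-B and large pre-B and 585 in granule-making cells, 190 in mature B cells, 61.2 in late erythroid cells and 14.95 in mature neutrophils. A UMI of Mki67 was found in 86.1% of middle erythroid cells (median depth 6555 UMIs), 63.6% of granule-making neutrophils (9669), 40.2% of pre-B cells (3079) and, as a level for cells that no longer divide, 3.34% of mature neutrophils (2004). Top2a, which untangles sister chromatids, had 1131 CPM in pre-B and 780 in middle erythroid cells, Smc4, a condensin subunit, 866 and 820, and the DNA-bending protein Hmgb2 3944 and 2242. Tmpo and Lbr, of the inner nuclear membrane, had 668 and 444 CPM in pre-B cells and 476 and 665 in middle erythroid cells. G2e3, the ubiquitin ligase of G2, had 58.6 CPM in middle erythroid, 57.2 in early erythroid and 57.2 in pre-B cells.

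To see how many cells carried the genes, each cell was thinned to 1000 UMIs and called positive if 3 or more of the 45 were seen. Early erythroid cells had the highest share, 95.7% (interval 91.8 to 98.1), then azurophil and granule neutrophils (77.4%), middle erythroid cells (62.8%), azurophil progenitors (60.9%), granule-making neutrophils (59.0%) and pro-B and large pre-B cells (56.6%). Pre-B cells had 41.9%, Kit progenitors 37.1% and monocytes 31.8%. Immature B cells (11.3%), mature B cells (12.8%), T cells (14.3%), NK cells (13.1%), macrophages (12.7%), plasmacytoid dendritic cells (14.3%) and intermediate neutrophils (10.1%) had overlapping intervals, and late erythroid cells had 1.76% (0.966 to 2.94). Without thinning the shares were 88.2% in early erythroid cells, 47.2% in mature neutrophils and 38.4% in late erythroid cells. These shares count haemoglobin among the thinned UMIs, which leaves few other UMIs in middle and late erythroid cells. Thinned instead to 500 UMIs other than haemoglobin, 73.2% of early (67.2 to 78.6), 69.6% of middle (65.8 to 73.2) and 17.96% of late erythroid cells (15.2 to 20.9) were positive, beside 47.2% of granule-making and 3.72% of mature neutrophils. The late erythroid share counts Ube2c and Nusap1, which were seen before thinning in 71.1% and 50.6% of late cells. It was not computed without them. Of early erythroid cells 67 of 255 fell below 1000 UMIs and left the thinned count, as did 70 of 125 macrophages.

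Mature neutrophils, which are known not to divide, were positive at 18.6% (16.2 to 21.2). Of the 45 genes 7 are also known outside mitosis, namely Hmgb2, Tmpo, Lbr, Cks1b, Smc4, Cks2 and G2e3. With the other 38 genes alone the share was 0.604% in mature neutrophils and 1.63% in intermediate neutrophils, but 44.9% in granule-making neutrophils, 33.1% in pre-B cells, 57.2% in middle erythroid and 80.9% in early erythroid cells. In T cells it was 2.38%, in mature B cells 5.39% and in NK cells 5.05%. Mature neutrophils are here the class that should lack these genes, with a median depth of 2004 UMIs before thinning, against 9669 in granule-making neutrophils, 3079 in pre-B and 2480 in early erythroid cells.

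**Figure D2:**
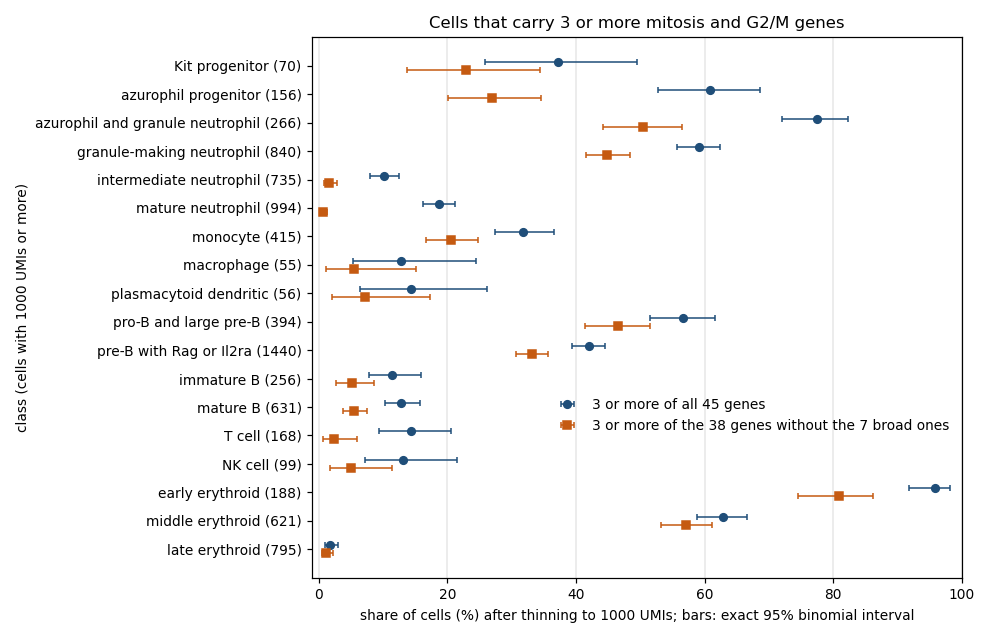
Share of cells in each class with 3 or more mitosis and G2/M genes after thinning to 1000 UMIs (circles) and the same without 7 genes known outside mitosis (squares), with exact 95% binomial intervals; haemoglobin is among the thinned UMIs and lowers the middle and late erythroid shares. Early erythroid cells reach 95.7% and 80.9%, while mature neutrophils go from 18.6% to 0.604% when the 7 genes are left out.

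The genes were spread unevenly within classes. After thinning, 17.5% of pre-B cells held none of the 45, 40.6% held 1 or 2, 9.93% held 3 to 5, 8.47% held 6 to 9 and 23.5% held 10 or more. Middle erythroid cells, with haemoglobin among the thinned UMIs, had 11.4% at 3 to 5 and 38.8% at 10 or more. Azurophil and granule neutrophils had a single middle hump instead, with 37.97% at 3 to 5, 33.8% at 6 to 9 and 5.64% at 10 or more. Granule-making neutrophils reached 10 or more in 13.7% and mature neutrophils in 0%. The summed level of pre-B cells is thus an average over cells with many members and cells with few.

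Within the B lineage the summed level was 0.811 times as high in pro-B and large pre-B cells as in pre-B cells (interval 0.802 to 0.820). None of the 45 genes was past 2-fold in this comparison, against 8.66% of 10507 genes higher and 7.51% lower, and the members' log2 ratios ran from -0.53 (Ckap2l) to 0.22 (Ccnb1). With the stricter mitochondrial limit of 5% the ratio was 0.634, resting on 64 pre-B cells. The pro-B and large pre-B class held 2 kinds of cell. Of 240 cells with Dntt, the terminal transferase of the pro-B stage, 43.5% were positive (37.1 to 50.1), and of 155 cells without it 76.8% (69.3 to 83.2). Their median depths before thinning were 6084 and 14700 UMIs. Ccnb1 had 90.9 CPM in the first and 164 in the second.

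Pre-B cells had 4.68 times the summed level (4.59 to 4.78) of the 895 immature and mature B cells, which carry Ms4a1 (CD20). The count of members past 2-fold was 43 of 45, all higher in pre-B cells, where 13.5% of 10317 genes were higher and 9.1% lower. Ccnb1 had the largest difference, with 113 CPM in pre-B cells against 10.9 in B cells with Ms4a1, a ratio of 10.4 (7.44 to 15.1). Mki67 differed 5.802-fold, Cdk1 6.003-fold, Plk1 7.67-fold and Nek2 7.07-fold. Cenpa (402 against 217 CPM, 1.86-fold) and G2e3 (57.2 against 32.3 CPM, 1.77-fold) stayed within 2-fold. Under the 5% mitochondrial limit the ratio of the sums was 2.33, with 64 pre-B and 4 mature B cells left, so the size of this difference moves with that filter.

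Among pre-B cells, 831 with Rag1 or Rag2 but no Il2ra were positive at 46.2%, 104 with Il2ra alone at 43.3% and 520 with both at 34.9%. The intervals of the first and the last, 42.8 to 49.7 and 30.8 to 39.2, did not overlap. Summed levels were 14564 CPM without Il2ra, 12872 with Il2ra alone and 14195 with both. Ccnb1 had 103, 73.7 and 141 CPM in the same order, which is not the order of the shares.

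In the neutrophil lineage the summed level was highest in granule-making cells. Azurophil progenitors, rich in Elane, Mpo and Ctsg, had 2.20 times the level of mature neutrophils (2.13 to 2.26) and granule-making neutrophils 4.11 times (4.00 to 4.23). Without Hmgb2, which was as high in mature neutrophils (1244 CPM) as in azurophil progenitors (1270 CPM), these ratios were 3.64 and 5.73. Against mature neutrophils 42 of 45 members were past 2-fold higher in azurophil progenitors, where 46.8% of 9353 genes were, and 43 of 45 in granule-making cells, where 28.9% of 9281 genes were. Between granule-making and intermediate neutrophils the step was as large, with a ratio of sums of 3.97 (3.89 to 4.06) and 44 of 45 members past 2-fold higher, against 25.4% of genes, and none lower, against 8.46%. From intermediate to mature neutrophils the sums were 2336 and 2257 CPM, a ratio of 1.03 (1.00 to 1.07), with 33 members counted well enough. Of these 15 were higher in intermediate cells (8.05% of genes) and 2 lower (17.1% of genes).

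Single genes show this course. Mki67 had 152 CPM in azurophil progenitors, 411 in azurophil and granule neutrophils, 585 in granule-making, 44.3 in intermediate and 14.95 in mature neutrophils. Cks1b ran the opposite way through the dividing stages, from 246 CPM in azurophil progenitors through 153 to 93.0 in granule-making cells, before 9.12 and 5.98. Ttk, Plk1 and Nuf2 had the largest ratios between granule-making and intermediate cells, at 6.16, 4.21 and 4.08 on the log2 scale. Ttk rested on 1 UMI in the intermediate class.

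Lbr, Kif23, Hmgb2 and Cks2 had the smallest ratios between granule-making and mature neutrophils, at -0.26, 0.16, 1.48 and 1.54 on the log2 scale. Lbr, the lamin B receptor, which holds heterochromatin to the nuclear envelope and whose loss is known to leave neutrophil nuclei without lobes, had 150 CPM in azurophil progenitors, 257 in azurophil and granule neutrophils, 339 in granule-making, 307 in intermediate and 404 in mature neutrophils. It was thus 2.70-fold higher in mature neutrophils than in azurophil progenitors (2.42 to 3.02), the single member past 2-fold in that direction, where 22.6% of genes were. Lmnb1, the lamin to which this receptor binds and which is not among the 45, had 130, 326 and 1537 CPM in azurophil, granule-making and mature cells. Kif23 had 43.4 CPM in azurophil progenitors, 96.5 in granule-making, 22.9 in intermediate and 86.3 in mature neutrophils, so that its lowest class lay between 2 higher ones. It was 3.76-fold higher in mature than in intermediate cells (2.92 to 4.89). Against azurophil progenitors it was 1.99-fold higher in mature cells (1.60 to 2.48), just short of the 2-fold call. Hmgb2 had 1272 and 1244 CPM in intermediate and mature cells and Cks2 184 and 147. The second gene counted as lower in intermediate cells, Dlgap5, had 13 and 17 UMIs and an interval that includes no difference.

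Within granule-making neutrophils the level of Lbr differed less between cells than that of Top2a or Ube2c. It was 374 CPM in the 468 cells with 3 or more of the others and 258 in the 372 cells with fewer, while Top2a was 667 and 63.0 and Ube2c 642 and 22.98 in cells split the same way. In mature neutrophils Lbr was 393 and 401 CPM in the corresponding cells. Hmgb2 was 4511 and 1585 CPM in granule-making cells, between these cases.

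**Figure D3:**
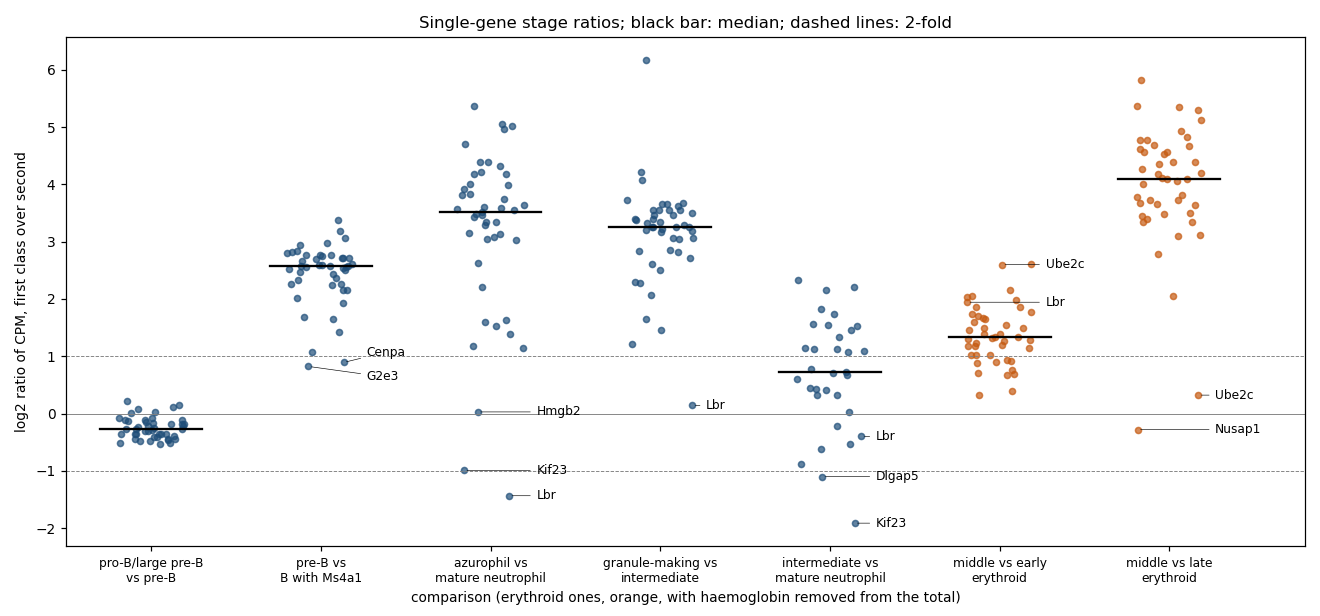
Log2 ratio of CPM of each gene (points) in 7 comparisons of neighbouring or end stages, the first class over the second, with the median (black bar) and 2-fold lines (dashed); genes under 20 UMIs over both classes are left out, 0 UMIs are set to 3, and the erythroid values (orange) use totals without haemoglobin. Most points lie above 2-fold between dividing and mature stages, and the labels name genes apart from the rest, among them Lbr and Kif23 in neutrophils and Ube2c and Nusap1 in middle against late erythroid cells.

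Red cell precursors were ordered by the share of haemoglobin in their UMIs, which lowers the CPM of every other gene, so levels in this lineage were also computed with haemoglobin genes left out of the total. In early erythroid cells (under 20% haemoglobin) the 45 genes had 15.9 times the summed level of late erythroid cells (over 75%), but 2.19 times with haemoglobin left out. Of the 3720 member UMIs of late erythroid cells Ube2c took 1649, Nusap1 737 and the other 43 genes 1334. In early cells these 43 took 24842 of 26421, and in middle cells 60536 of 69029. The ratios of sums to late cells are thus lower than for the 43 genes alone. Of the members 43 of 45 were past 2-fold higher, as were 94.2% of 7657 genes, so that count says little about the members. With haemoglobin left out it was also 43, beside 74.4% of genes higher, and the other 2, Ube2c and Nusap1, were past 2-fold lower, as were 9.24% of genes. From early to middle erythroid cells the summed level was 1.34-fold higher (1.32 to 1.36), and 2.66-fold with haemoglobin left out. Here 5 members were past 2-fold higher (Cenpf, Ube2c, Kif23, Ect2 and Nusap1) where 6.07% of 8387 genes were, and none lower where 63.1% were. With haemoglobin left out 35 of the 45 were past 2-fold higher and none lower, where 16.9% of genes were higher and 34.6% lower. Middle against late erythroid cells gave a ratio of 21.3 with all 45 members past 2-fold, again beside 94.2% of genes higher and 0.121% lower, and of 5.83 and 43 members with haemoglobin left out, beside 63.4% of genes higher and 4.92% lower.

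Finer steps of haemoglobin show the course of the genes. With haemoglobin left out the summed level was 9047 CPM below 5% haemoglobin, 18726 at 5 to 20%, 28071 at 20 to 35%, 41961 at 35 to 50%, 35767 at 50 to 65%, 11428 at 65 to 75% and 5269 above 85%. Of the 5269 CPM in the last step Ube2c took 2725. Thinned to 500 UMIs other than haemoglobin, positive cells made up 75, 70.9, 88.2, 92.4, 70.7, 39.8, 24.6 and 15% of the 8 steps, with Ube2c and Nusap1 counted. Level and share were thus highest where haemoglobin took 35 to 50% of UMIs, with the interval of the share overlapping that of the step before. With haemoglobin among the thinned UMIs the last step had 0.712%. Mki67 followed this course, from 802 to 6695 and down to 262 CPM with haemoglobin left out. Ccnb1 was highest 1 step later, at 459 CPM in cells with 50 to 65% haemoglobin.

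Ube2c and Nusap1 differed from the rest in late erythroid cells. In late erythroid cells Ube2c had 319 CPM (304 to 335) and Nusap1 143 (133 to 153), out of 720 CPM for all 45 genes together. A UMI of Ube2c was found in 565 of 795 late erythroid cells (71.1%, median depth 6178 UMIs), of Nusap1 in 402 (50.6%), of Mki67 in 177 (22.3%) and of Cdk1 in 12 (1.51%). In mature neutrophils Ube2c was found in 3.92% and Nusap1 in 1.24% of cells. With haemoglobin left out Ube2c had 331 CPM in the first step, 4214 at 50 to 65%, 1900 at 65 to 75% and 2725 above 85% haemoglobin. For each UMI of Top2a there were 0.380 of Ube2c in pre-B cells, 0.9504 in granule-making neutrophils, 0.699 in early, 1.87 in middle and 30.5 (23.3 to 40.8) in late erythroid cells. Unthinned and with haemoglobin left out, Ube2c had 2355 CPM (2070 to 2667) in the 159 late cells with no other member, 2439 in the 463 with 1 or 2 others and 2450 (2243 to 2672) in the 173 with 3 or more. Nusap1 had 1150, 1077 and 1083 CPM in late cells split the same way, whereas Mki67 had 340, 295 and 699.5.

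Both genes share bases with a gene on the other strand, Ube2c with Tnnc2 over 1662 bases and Nusap1 with Oip5 over 172 bases, and for the strand used in counting no statement was found. Tnnc2, a troponin of muscle, had 0 UMIs in late erythroid cells, which allows up to 0.581 CPM, and Oip5 had 27. In all 11 members overlap a gene on the other strand and 0 a gene on the same strand. Lbr overlaps Dnah14 over 440 bases, and Dnah14 had 0 UMIs in mature neutrophils.

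**Figure D4:**
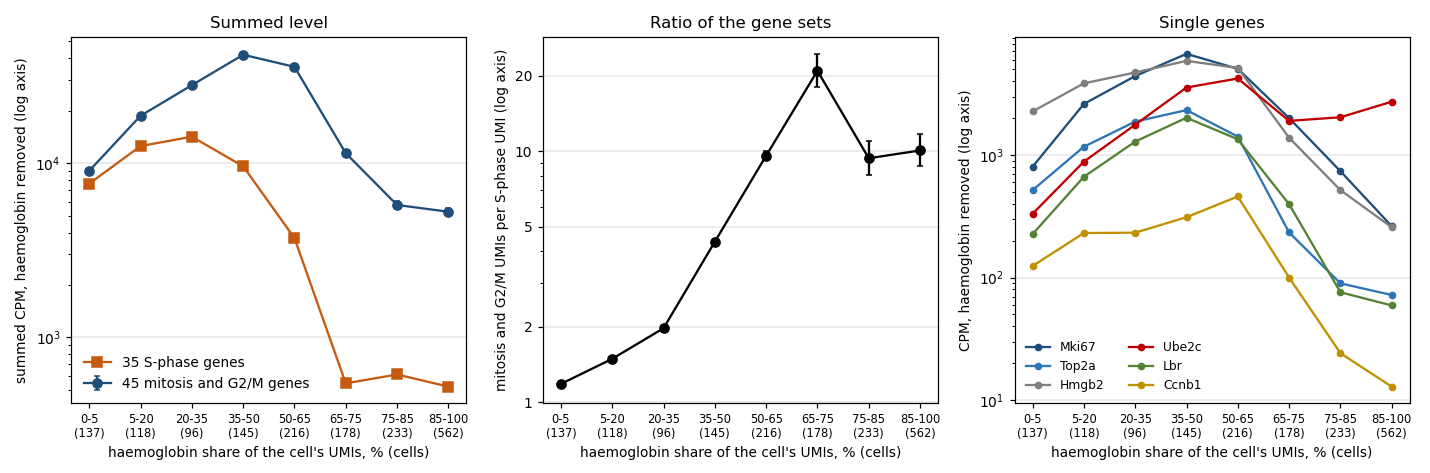
Erythroid cells in 8 steps of haemoglobin share (cells in brackets): summed CPM of the 45 genes and of 35 S-phase genes (left), UMIs of the first per UMI of the second (middle) and CPM of 6 single genes (right), all on log axes, with haemoglobin left out of the totals and exact 95% intervals where drawn. The ratio goes from 1.19 to 20.96 at 65 to 75% haemoglobin (16.3 without Ube2c and Nusap1), and Ube2c stays at 2725 CPM in the last step.

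A ratio within a class does not depend on its total, so the 45 genes were also set against a list of 35 S-phase and DNA replication genes. Their UMIs per S-phase UMI were 1.31 in early, 4.15 in middle and 9.76 in late erythroid cells, and went by haemoglobin step from 1.19 (1.16 to 1.21) to 20.96 (18.04 to 24.5) at 65 to 75%. Without Ube2c and Nusap1 they were 1.24 in early, 3.64 (3.58 to 3.71) in middle and 3.50 (3.12 to 3.93) in late erythroid cells, so that the difference between middle and late lay in these genes, and 16.3 at 65 to 75% haemoglobin. Neutrophils went the same way, with 1.59 in azurophil progenitors, 2.19 in azurophil and granule cells and 4.00 in granule-making cells. Without Hmgb2 these neutrophil values were 1.18, 1.46 and 2.503. With the 38 genes that leave out all 7 broad ones they were 0.752, 1.05 and 1.84, and in pro-B and large pre-B cells 0.954, in pre-B cells 1.27, in early erythroid cells 0.772 and in middle erythroid cells 2.87. In each of the 3 lineages the later of these dividing classes therefore had more mitosis UMIs per S-phase UMI than the earlier one, with intervals that do not overlap. Kit progenitors, not placed in these lineages, had 1.76 (1.69 to 1.85), above azurophil progenitors, and 0.975 (0.926 to 1.03) with the 38 genes.

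Pairs of members also changed their ratio between classes. For each UMI of Top2a, Mki67 had 0.574 in azurophil progenitors (0.514 to 0.641), 0.999 in azurophil and granule cells and 1.19 in granule-making neutrophils. In pro-B and large pre-B cells it had 0.866 and in pre-B cells 0.948, but 1.89 in early, 3.03 (2.91 to 3.14) in middle and 5.85 (4.37 to 7.96) in late erythroid cells. For each UMI of Ccna2, which is known to act before the B cyclins, Ccnb1 had 0.721 in azurophil progenitors and 0.413 in granule-making cells, 0.564 in pro-B and 0.451 in pre-B cells, and 0.548 in early and 0.460 in middle erythroid cells. The other B cyclin, Ccnb2, did not fall this way in neutrophils and B cells. It had 0.941 in azurophil progenitors and 1.02 in granule-making cells, and 0.748 in pro-B and 0.788 in pre-B cells, with intervals that overlap in each pair. Cdc20 per Ccna2 UMI was 0.717 in granule-making neutrophils, 0.639 in pre-B, 0.557 (0.502 to 0.617) in pro-B and large pre-B, 0.465 (0.403 to 0.535) in early erythroid and 0.256 (0.227 to 0.287) in middle erythroid cells. Middle erythroid cells thus had less Cdc20 per Ccna2 UMI than these B and neutrophil classes, while early erythroid and pro-B and large pre-B intervals overlapped.

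The other genes of the cell cycle were followed through 4 lists. Past 2-fold, 13.5% of all genes measured were higher and 9.1% lower in pre-B cells than in B cells with Ms4a1. Against mature neutrophils these shares were 28.9% and 20.7% in granule-making neutrophils, and 46.8% and 22.6% in azurophil progenitors. Of 49 further spindle, kinetochore and condensin genes, 47 of 48 measured ones were past 2-fold higher in pre-B cells than in B cells with Ms4a1 and none lower. In granule-making against mature neutrophils 46 of 48 were higher and 2 lower, Pttg1 (securin, 7.52 against 51.3 CPM) and Lmnb1. The 35 S-phase genes were higher for 33 of 35 in pre-B cells, for 33 of 34 in granule-making neutrophils and for all 35 in azurophil progenitors, with none lower. Between middle and early erythroid cells 26 of 35 S-phase genes were past 2-fold lower, near the 63.1% of all genes, and none higher, for example the repair enzyme Ung at 5.77 against 49.9 CPM. Their median log2 ratio there was -1.37, beside -1.46 for all genes measured and 0.35 for the 45 genes. Of 27 transcription factors and DREAM subunits, 15 were higher and 1 lower in pre-B cells, among the higher ones Foxm1 (80.9 against 15.8 CPM) and Mybl2, which encodes B-Myb (67.0 against 12.1 CPM). In granule-making neutrophils 16 of 25 were higher and 1 lower. Of the G1 cyclins, Cdks and inhibitors 10 of 19 were higher and 1 lower in pre-B cells, against 13.5% and 9.1% of all genes. In granule-making neutrophils 7 of 19 were higher and 4 lower, near the 28.9% and 20.7% of all genes. There the antiproliferative Btg1 had 542 CPM against 3476 in mature neutrophils. Median log2 ratios in granule-making against mature neutrophils were 4.26 for the 45 genes, 4.19 for the further spindle genes, 3.40 for S phase, 1.39 for the factors and 0.05 for the G1 list, beside 0.21 for all genes measured.

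Few cells of bone itself were in the matrix. Among 26 osteoblasts the 45 genes had 109 UMIs, 381 CPM against 7664 in all blood classes (0.0497 times, 0.0408 to 0.0600). With stricter marker gates the class held 27 cells and 1281 CPM, 3.36 times as much, so the level depends on which cells are called osteoblasts. There 42 of 45 members were past 2-fold lower, where 25.8% of 13143 genes were, with 19 members at 0 UMIs and so at their limit. Hmgb2 had 28 of these UMIs, Cks2 10, Lbr 9, Top2a 6 and Mki67 0, which allows up to 10.5 CPM of Mki67. Of the 17 osteoblasts with 1000 UMIs or more 2 were positive (11.8%, 1.46 to 36.4). The 13 marrow stromal cells had 1370 CPM, and 2 of them were deep enough to be thinned. Fewer dividing cells and less RNA of these genes per cell cannot be told apart in summed levels.

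Among small blood classes, the 29 basophils had 1092 CPM of Cks2 (913 to 1294), above the 451 CPM of early erythroid cells, its highest class with 100 cells or more. In the 20 basophils with fewer than 3 other members Cks2 had 983 CPM (765 to 1245), while Mki67 and Top2a, in cells split the same way, had 1 UMI each. The 24 osteoclasts had 99.5 CPM of Cdk1 and 342 of Top2a, and 33.3% of 21 were positive (14.6 to 57.0). With the mitochondrial limit at 5%, 5 osteoclasts were left and the summed level was 532 CPM against 3538.

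Finally, each member was asked how far it kept to cells that carry the others, as the share of its UMIs in cells with 3 or more of the other 44 after thinning. These cells numbered 2805 to 3340, by gene, and held 47.3 to 52.8% of all UMIs. Haemoglobin was among the thinned UMIs, so few late erythroid cells could be among them. The share was above 90% for 36 members, with a median of 95.4%, and highest for Cdc25c (98.2%), Plk1 (97.9%), Hmmr (97.9%), Kif2c (97.6%) and Nuf2 (97.3%). Mki67 had 94.4%. The lowest were Lbr (70.6%, 70.0 to 71.2), Cks2 (77.9%), G2e3 (79.8%), Cenpa (80.1%) and Hmgb2 (82.4%), followed by Ube2c (88.3%), Smc4 (88.4%) and Nusap1 (88.7%). Plk1 had 57.6 CPM in such cells and 1.35 in all others, a ratio of 42.5, and Lbr 415 and 176 CPM, a ratio of 2.35.

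**Figure D5:**
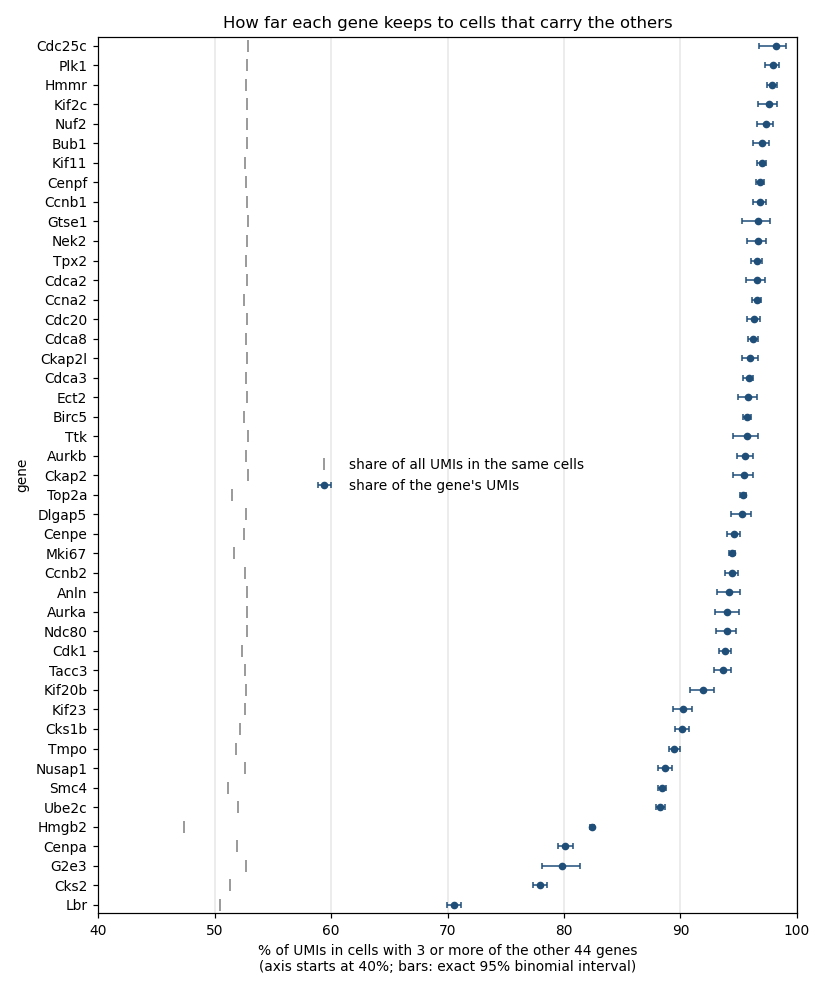
For each gene, the share of its UMIs that lay in cells with 3 or more of the other 44 genes (points, with exact 95% binomial intervals), beside the share of all UMIs in the same cells (ticks); the axis starts at 40%. Most genes lie above 90%, and Lbr, at 70.6%, is the lowest.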

How the data were processed

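Single-cell RNA was counted by 10x Genomics droplet sequencing in 1 pooled matrix of 4 sample records. The values are counts of UMIs per gene and barcode as deposited by the authors. The submitters' processing notes name Cell Ranger 3.1.0, Seurat 3 and mm10, while the strand setting of the counting was not found in them. From the counts, barcodes were retained from 500 UMIs and 200 genes upward if mitochondrial UMIs were no more than 10% and doublets called by Scrublet in scanpy 1.11.5 left out. Classes were set from gates on part of 28 marker lists that hold no member, on haemoglobin share and on single marker genes. Thresholds were set after the scores were seen. No gate used the lists for eosinophils, conventional dendritic cells, megakaryocytes, chondrocytes, endothelium, muscle or Schwann cells, so such cells were not separated. The members and all lists were chosen with earlier results of these data known, and all 45 members are accounted for by role. UMIs were summed per class and divided by the class total to give CPM. Genes with fewer than 20 UMIs over both classes were left out of a comparison, past 2-fold is the call, and a gene at 0 UMIs on 1 side was set to 3. Intervals at 95% are exact Poisson for CPM, Clopper-Pearson for shares and conditional binomial for ratios. PCR and capture are not covered by them. Cells were thinned to 1000 UMIs for shares, shallower cells being left out, and to 500 UMIs other than haemoglobin as an alternative. The scripts ran in Python 3.11.15 with matplotlib 3.10.9, anndata 0.12.19, pandas 2.3.3, scipy 1.17.1 and numpy 2.4.6 and were tested on simulated data. Promoters came from RefSeq windows of GRCm38.p6. Alternatives covered the filters, doublets, totals, gates, depth of thinning, number of members, fold and minimum of UMIs.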

Additional observations from a re-analysis of the deposited data

How the results depend on the processing

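With 1 library, leaving out a sample was not possible. No paired analysis was possible because the records are pooled in 1 library of 1 group. No ratio of summed levels turned its direction under the alternatives run. For single genes, Ube2c and Nusap1 in early against late erythroid cells turned from 0.58 and 0.54 to -2.28 and -2.32 (log2) with haemoglobin left out. All 20 recomputed counts of members past the fold, at 1.5-fold, 4-fold, 1 UMI and 50 UMIs, were within 1.5 times the main count. Of the recomputed sums per class 75 moved beyond their counting interval and 86 did not, and of the shares 111 moved and 95 did not. The ratios of summed levels moved as follows. With a mitochondrial limit of 5%, pro-B and large pre-B against pre-B was 0.634, pre-B against B cells with Ms4a1 2.33, azurophil progenitors against mature neutrophils 2.63 and early against late erythroid cells 17.4. With a limit of 20% the first pair was 0.906 and 5.29. With at least 1500 UMIs the azurophil ratio was 2.27 and the granule-making ratio 4.25. With haemoglobin left out, early against late was 2.19. With the 50 most abundant genes left out, pre-B against B was 4.44, azurophil 1.91, granule-making 5.32 and early against late 2.28. With stricter gates the values were 0.659, 5.23, 2.33 (azurophil) and 3.98 (granule-making). Without Hmgb2, an alternative chosen after seeing the data, they were 0.822, 3.64 and 5.73 for pro-B and the neutrophil classes, and 13.1 for early against late erythroid cells.

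The shares of cells with 3 or more members are given for granule-making neutrophils, mature neutrophils, pre-B, mature B, early erythroid and late erythroid cells in this order. Thinned to 500 UMIs they were 46.6, 4.49, 35.5, 5.39, 73.3 and 0.503%, and thinned to 2000 UMIs 69.4, 39.4, 60.8, 32.9, 98.6 and 7.30%. Thinned to 500 UMIs other than haemoglobin, also chosen after seeing the data, they were 47.2, 3.72, 36.01, 5.55, 73.2 and 17.96%. With 5 members required they were 46.7, 1.31, 34.0, 5.23, 80.3 and 0.252%. With 2 members required they were 71.9, 50, 54.2 and 30.1% in the first 4 and 10.6% in late erythroid cells. Without the 7 genes known outside mitosis they were 44.9, 0.604, 33.1, 5.39 and 80.9% in the first 5. With the 5% mitochondrial limit mature neutrophils had 16.2%, pre-B cells 74.6% and mature B cells 0% of 4 cells, and with stricter gates granule-making neutrophils had 53.5%. The order of mature neutrophils and mature B cells thus turns with the depth and the genes used. The cause of these shifts was not tested. Depth limits genes such as Cdc25c and Ttk, which had few UMIs in mature classes, and the osteoblast and marrow stromal values, which rest on 26 and 13 cells.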
